A study of Mus musculus with 2 samples.

Results

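The nuclear-encoded genes of respiratory complexes II to V, with the electron carrier cytochrome c and their named regulators, were followed in mouse skeletal muscle. Members were the annotated genes whose symbols begin with Sdha, Sdhb, Sdhc, Sdhd, Uqc, Cox4, Cox5, Cox6, Cox7, Cox8 or Atp5, together with Cyc1, Cycs and Atpif1, and 2 symbols marked as pseudogenes were left out. The rule found 55 genes among 15507 annotated mouse genes with reads. The rule uses names alone, and it was set with earlier results of these data known. Both libraries were made from 2 µg of RNA of the gastrocnemius, a calf muscle, from male B6CASTF1/J mice aged 36 days, hybrids of a laboratory strain and a wild-derived one. There was 1 group and no treatment, and the labels call the libraries biological replicates 1 and 2, name the animals male 03 and male 04, and give both the same donor entry. Both library descriptions carry the same 2 sample codes, so whether a library pools animals is not given, and the spread over the 2 libraries may be technical in part. Transcripts were read by long-read RNA sequencing, in which a read can run along a whole transcript, and each read was assigned to a transcript model. Levels are in CPM, the reads of a gene per 1000000 reads in annotated genes, of which there were 1036455 in replicate 1 and 1374068 in replicate 2, so that a count of 0 allows up to 2.89 CPM and 2.18 CPM. A CPM is not divided by length, since a long read stands for 1 transcript. Levels per kilobase, which by construction favour shorter genes, are given beside CPM for some comparisons. Intervals cover counting error only, since reads carried no molecular identifiers.

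Oxidative phosphorylation passes electrons along protein complexes in the inner mitochondrial membrane and uses the proton gradient that results to make ATP. Complex II (succinate dehydrogenase) feeds electrons from the citric acid cycle, complex III (cytochrome bc1) hands them to cytochrome c, complex IV (cytochrome c oxidase) passes them to oxygen, and complex V (ATP synthase) lets protons flow back and makes ATP. Complexes III, IV and V mix subunits encoded in the nucleus with a few encoded in mitochondrial DNA, while complex II is wholly nuclear. Some small subunits of complex IV exist in a form found mainly in heart and skeletal muscle and a form found in most tissues, encoded by separate genes, and subunit c of complex V is encoded by several genes whose mature products are the same protein.

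The tissue labels were checked against markers. Fast fibre genes (Myh4, Tnnc2, Tnni2 and Mylpf) summed to 76877 and 106446 CPM in replicates 1 and 2. Slow or oxidative fibre genes (Myh7, Tnnc1, Tnni1, Myl2 and Myh2) summed to 651 and 698 CPM, but the genes went both ways. Tnnc1, Tnni1 and Myl2 were higher in replicate 2, with Tnnc1 at 64.6 and 231 CPM. Myh7 and Myh2 were higher in replicate 1, with Myh2, the largest of them, at 432 and 248 CPM. Whether slow fibre content was alike in the libraries was not tested. The liver genes Alb and Apoa1 and the brown fat gene Ucp1 had 0 reads in both libraries, and the heart gene Myh6 had 1 read in replicate 1 and 0 in replicate 2. Matrix genes (Col1a1, Col3a1 and Dcn) summed to 3171 and 787 CPM, and adipocyte genes to 82.0 and 263 CPM. In whole muscle, fewer cells of a type and less RNA per cell cannot be told apart. The leading full transcript models of Col1a1 and Col3a1 have 5930 and 5564 bases, and that of Dcn 1758 bases. The part of transcript length in the difference of the matrix genes was not tested.

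The coding sequences of the 3 pairs of complex IV paralogues show how far the muscle and ubiquitous forms differ, and so how readily a long read tells them apart. They were read from the GENCODE M21 transcripts on mm10, where Cox6a2 lies on the minus strand of chromosome 7 (128205435 to 128206387), Cox6a1 on the minus strand of chromosome 5 (115345642 to 115348981), Cox7a1 on the plus strand of chromosome 7 (30184144 to 30186078), Cox7a2 on the minus strand of chromosome 9 (79755361 to 79759878), Cox8b on the minus strand of chromosome 7 (140898945 to 140900446) and Cox8a on the minus strand of chromosome 19 (7215153 to 7217616). Capitals mark bases that differ from the paralogue, or have no partner there, in a global alignment. For subunit 6a the last 240 coding bases are shown, and for subunits 7a and 8 the whole coding sequence, stop codon included.
Cox6a2: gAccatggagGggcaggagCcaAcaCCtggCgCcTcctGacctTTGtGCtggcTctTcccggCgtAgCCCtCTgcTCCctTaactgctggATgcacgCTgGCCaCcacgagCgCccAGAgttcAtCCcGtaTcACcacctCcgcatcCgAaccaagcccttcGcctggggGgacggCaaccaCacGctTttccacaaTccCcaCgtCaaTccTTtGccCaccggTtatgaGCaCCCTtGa
Cox6a1: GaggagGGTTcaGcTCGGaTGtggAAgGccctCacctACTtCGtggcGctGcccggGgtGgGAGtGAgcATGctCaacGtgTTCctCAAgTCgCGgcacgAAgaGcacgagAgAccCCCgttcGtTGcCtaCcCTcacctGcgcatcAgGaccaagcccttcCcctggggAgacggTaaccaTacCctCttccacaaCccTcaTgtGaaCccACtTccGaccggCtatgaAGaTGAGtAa
Cox7a1: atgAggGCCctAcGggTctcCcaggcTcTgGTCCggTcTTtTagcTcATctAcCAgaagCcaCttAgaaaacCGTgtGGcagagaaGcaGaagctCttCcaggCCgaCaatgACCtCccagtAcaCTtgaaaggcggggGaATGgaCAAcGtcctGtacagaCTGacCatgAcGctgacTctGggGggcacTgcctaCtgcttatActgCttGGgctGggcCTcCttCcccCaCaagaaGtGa
Cox7a2: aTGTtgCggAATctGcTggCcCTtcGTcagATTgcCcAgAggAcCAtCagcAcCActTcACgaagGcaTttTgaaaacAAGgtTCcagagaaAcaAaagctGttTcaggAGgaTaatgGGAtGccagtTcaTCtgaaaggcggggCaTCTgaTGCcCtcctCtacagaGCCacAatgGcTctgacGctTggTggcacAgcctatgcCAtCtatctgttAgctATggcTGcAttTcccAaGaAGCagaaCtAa
Cox8b: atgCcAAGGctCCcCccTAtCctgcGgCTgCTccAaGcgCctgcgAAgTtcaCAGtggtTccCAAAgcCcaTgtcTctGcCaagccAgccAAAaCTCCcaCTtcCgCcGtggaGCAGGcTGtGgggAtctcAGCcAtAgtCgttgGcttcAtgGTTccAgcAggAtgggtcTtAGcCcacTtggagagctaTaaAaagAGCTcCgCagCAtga
Cox8a: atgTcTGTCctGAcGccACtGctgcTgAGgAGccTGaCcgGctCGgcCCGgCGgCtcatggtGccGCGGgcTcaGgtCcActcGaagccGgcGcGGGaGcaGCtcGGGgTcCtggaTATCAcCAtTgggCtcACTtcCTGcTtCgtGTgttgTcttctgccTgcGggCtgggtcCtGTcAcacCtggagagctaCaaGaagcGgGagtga
Over the whole coding sequences, 202 of 290 paired bases (69.7%) were identical between Cox6a2 and Cox6a1, 164 of 236 (69.5%) between Cox7a1 and Cox7a2, and 127 of 196 (64.8%) between Cox8b and Cox8a. Differing bases lay along the whole of each sequence.

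The 55 genes took 43662 of the gene reads in replicate 1 (4.21%) and 104010 in replicate 2 (7.57%), a sum of 42126 and 75695 CPM. Complex V summed to 23574 ± 8699 CPM (SD, n = 2) over 16 genes, complex IV to 21307 ± 10826 CPM over 15 genes, complex III to 9987 ± 3222 CPM over 9 genes, complex II to 2025 ± 284 CPM over 4 genes, cytochrome c to 1113 ± 390 CPM, and the 10 assembly and regulatory genes to 905 ± 316 CPM. Complex V was above complex IV in each library, at 17423 against 13651 CPM and 29725 against 28962 CPM in replicates 1 and 2. That order turned without incomplete and genomic models. Scaled to the reads left, the means were then 20457 CPM for complex V and 24954 CPM for complex IV. In all reads, complexes V and IV were above complex III in each library, and complex III was above complex II in each library. Mean levels ran from 1.09 CPM for Cox4i2 to 5746 CPM for Atp5b, and 46 of the 55 genes had a mean of at least 100 CPM. Levels of the members were ordered alike in the libraries, with a Pearson r of 0.977 and a Spearman rho of 0.953 for log2(CPM + 1) across the 53 members that had 10 reads or more over both libraries, a description across genes that share each library.

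**Figure D1:**
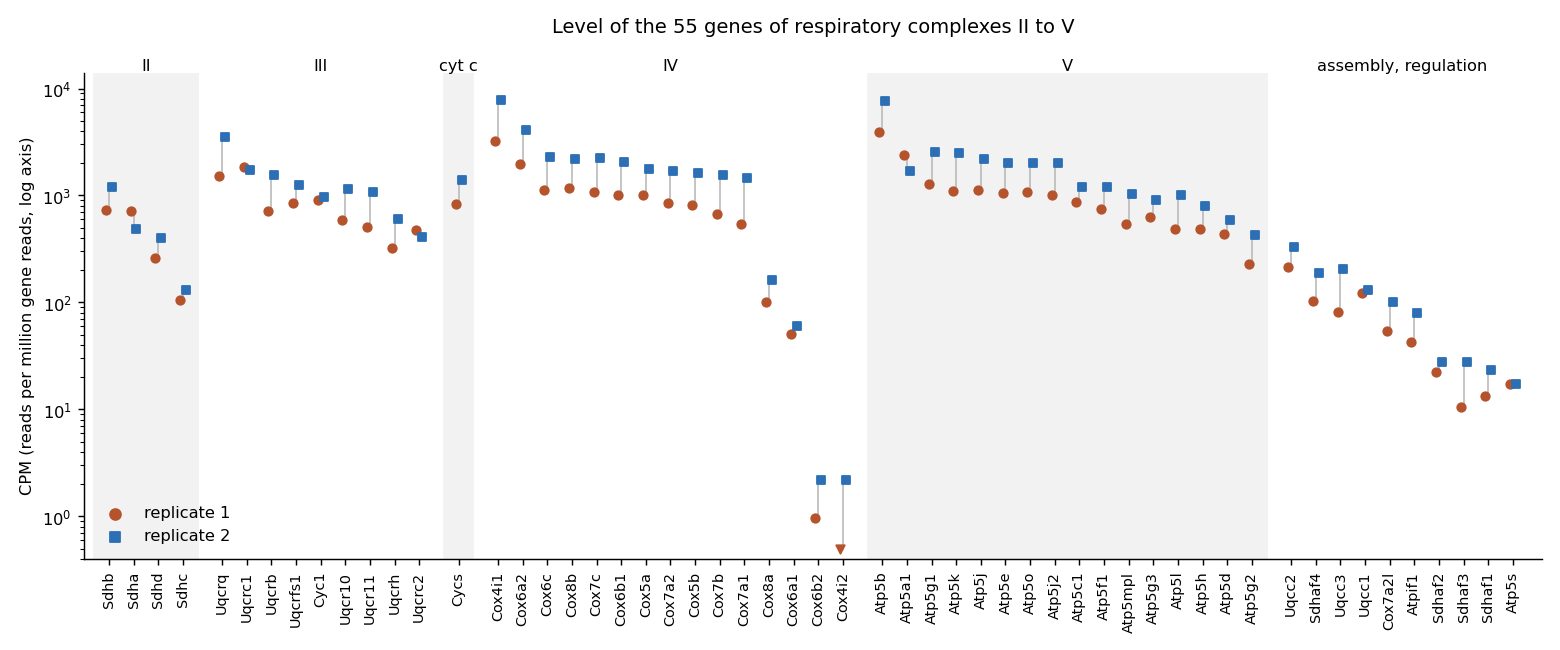
Level of each of the 55 genes in CPM (log axis) in replicate 1 (circles) and replicate 2 (squares), grouped by complex and ordered by mean within a group; the triangle at the foot marks Cox4i2, which had 0 reads in replicate 1. Most subunits sit above 100 CPM with replicate 2 above replicate 1, and Cox6b2 and Cox4i2 lie near the limit of detection.

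In complex II, the iron-sulphur subunit gene Sdhb had 737 and 1202 CPM in replicates 1 and 2, and Sdha, the flavoprotein that oxidises succinate, had 721 and 490 CPM. The membrane anchor genes had 261 and 403 CPM for Sdhd and 106 and 130 CPM for Sdhc. Per kilobase of the leading full model, 1142 bases for Sdhb and 2900 bases for Sdha, the levels were 645 and 1053 for Sdhb and 249 and 169 for Sdha. Sdhb was thus the higher of the catalytic pair in both libraries on that scale. All 4 genes passed 100 CPM.

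In complex III, the small subunit gene Uqcrq had 1505 and 3513 CPM in replicates 1 and 2. The core proteins, which form the matrix side of the complex, were at 1834 and 1750 CPM for Uqcrc1 and at 479 and 410 CPM for Uqcrc2. Uqcrq had the highest mean of the complex, Uqcrc1 was above it in replicate 1, and without incomplete and genomic models Uqcrq was at 908 and 1771 CPM and Uqcrc1 at 1774 and 1657 CPM. The catalytic subunit genes were Uqcrfs1, the Rieske iron-sulphur protein, with 854 and 1242 CPM, and Cyc1, the cytochrome c1 gene, with 912 and 959 CPM. The remaining small subunit genes Uqcrb, Uqcr10, Uqcr11 and Uqcrh had means between 463 CPM for Uqcrh and 1134 CPM for Uqcrb. Uqcrc1, Uqcrc2 and Cyc1 were close to equal in the libraries, and each of the 5 small subunit genes was higher in replicate 2. Cycs, the gene of the mobile carrier itself, had 837 and 1389 CPM.

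In complex IV, Cox4i1, the ubiquitous form of subunit 4, had 3249 and 7777 CPM, and Cox6a2, the muscle form of subunit 6a, had 1967 and 4070 CPM. Cox6c, Cox8b, Cox7c, Cox6b1, Cox5a, Cox7a2, Cox5b, Cox7b and Cox7a1 followed with means from 1702 CPM for Cox6c to 1001 CPM for Cox7a1. Below them were the ubiquitous forms Cox8a, with 100.3 and 164 CPM, and Cox6a1, with 51.1 and 60.4 CPM. Cox4i2, a form of subunit 4 known from lung, had 0 reads in replicate 1 and 3 in replicate 2. Cox6b2, a form of subunit 6b known from testis, had 1 and 3 reads. Cox4i1 thus held 100% of the subunit 4 reads in replicate 1 (Wilson 95% interval 99.9 to 100) and 99.97% in replicate 2 (99.92 to 99.99). Cox6b1 held 99.91% (99.47 to 99.98) and 99.89% (99.69 to 99.96) of subunit 6b reads.

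In complex V, the catalytic beta subunit gene Atp5b had 3914 and 7578 CPM and ranked 16th by mean among all genes, ahead of Cox4i1 at rank 19. The alpha subunit gene Atp5a1 had 2415 and 1694 CPM, and the gamma subunit gene Atp5c1 had 871 and 1199 CPM. Subunits alpha and beta stand in equal number in the F1 head of the enzyme. Without incomplete and genomic models Atp5b was at 2235 and 1624 CPM and Atp5a1 at 2220 and 1445 CPM, so most of the gap between them in all reads lay in the other models. Among genes of the membrane part and the stalk, Atp5g1, Atp5k, Atp5j, Atp5o and Atp5j2 had means from 1926 CPM for Atp5g1 to 1501 CPM for Atp5j2, near the 1548 CPM of Atp5e, the epsilon subunit gene of the F1 head. The others were Atp5f1, Atp5mpl, Atp5g3, Atp5l, Atp5h, Atp5d and Atp5g2, from 968 CPM for Atp5f1 to 328 CPM for Atp5g2. Subunit c, which forms the rotating ring, was read from 3 genes, and Atp5g1 held 62.8% ± 3.99 of its reads (SD, n = 2), Atp5g3 26.4% ± 4.27 and Atp5g2 10.8% ± 0.273. That order held in both libraries for reads as assigned, but not once the reads of identical pseudogenes are added to Atp5g2, which puts it at 605 and 1079 CPM, below the 630.0 CPM of Atp5g3 in replicate 1 and above its 913 CPM in replicate 2.

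On the scale of CPM per kilobase of the leading full model, Cox4i1 was first at 9538 ± 5540 (SD, n = 2), followed by Atp5k at 4832 ± 2615, Cox8b at 4706 ± 1993 and Cox6a2 at 4439 ± 2186, and Atp5b was ninth at 2999 ± 1352. For Cox4i1 all reads were divided by the 578 bases of its leading annotated model, a retained-intron transcript and not the coding one. Its 5-exon coding model of 745 bases held 33.2% and 24.0% of its reads in replicates 1 and 2. The value of Cox4i1 is thus not that of its coding model. For Atp5b all reads were divided by 1916 bases, though a model of 372 bases held 38.0% and 73.7% of them. Of the neighbours from Atp5k to Cox6a2, Cox8b was above Atp5k in replicate 1 and below it in replicate 2. Cox6a2 was below Atp5k and Cox8b in each library. Full models ran from 360 bases for Cox8b to 4323 bases for Sdhaf3, and the leading full models of complex IV were at most 1001 bases long.

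The assembly and regulatory genes were lower in CPM than most structural subunits. Uqcc2, a complex III assembly factor, was the highest with 214 and 328 CPM, followed by Sdhaf4, a complex II assembly factor, with 102 and 187 CPM, and Uqcc3, for complex III, with 82.0 and 207 CPM. Atpif1, which encodes the inhibitor of ATP hydrolysis by complex V, had 42.5 and 79.3 CPM, and Cox7a2l, which takes part in joining complexes into supercomplexes, had 54.0 and 100.4 CPM. Sdhaf1, Sdhaf2, Sdhaf3 and Atp5s had means between 17.4 and 24.9 CPM, and Uqcc1 had 126 ± 5.47 CPM.

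The muscle and ubiquitous paralogues of complex IV were compared within each library, where both genes share the same depth. The muscle form was far above the ubiquitous form for subunits 6a and 8, and for subunit 7a the forms were closer, with a direction that depended on the scale. Cox6a2 had 2039 reads against 53 for Cox6a1 in replicate 1, a ratio of 38.5 (exact 95% interval 29.3 to 51.5), and 5592 against 83 in replicate 2, a ratio of 67.4 (54.3 to 84.7). Cox8b had 1230 reads against 104 for Cox8a in replicate 1, a ratio of 11.8 (9.68 to 14.6), and 3025 against 225 in replicate 2, a ratio of 13.4 (11.7 to 15.5). Cox7a1 had 566 reads against 873 for Cox7a2 in replicate 1, a ratio of 0.648 (0.582 to 0.722), and 2001 against 2336 in replicate 2, a ratio of 0.857 (0.807 to 0.910). The mean log2 ratios were 5.67 ± 0.57 for subunit 6a, 3.66 ± 0.13 for subunit 8 and -0.42 ± 0.28 for subunit 7a (SD, n = 2). These ratios were not tested against 0. As shares of the pair, the muscle form held 98.0% ± 0.757 of subunit 6a, 92.6% ± 0.617 of subunit 8 and 42.7% ± 4.81 of subunit 7a.

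**Figure D2:**
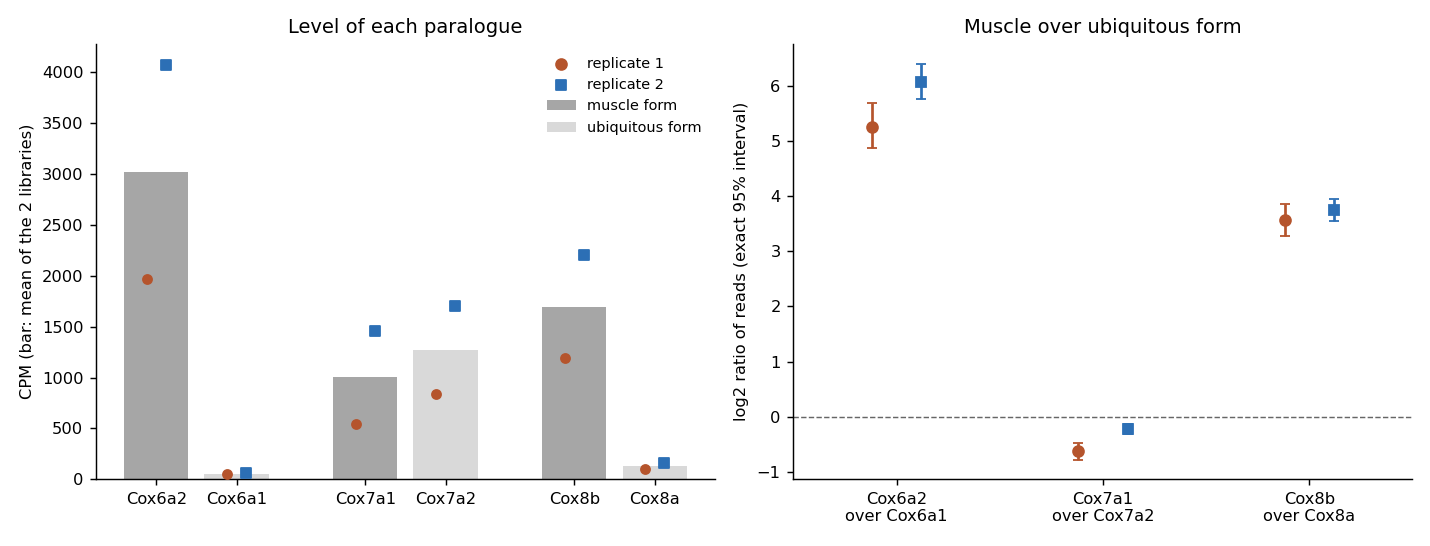
Left, CPM of the muscle (dark bars) and ubiquitous (light bars) form of 3 subunits of complex IV, with the bar at the mean and points for replicates 1 and 2. Right, log2 ratio of reads of the muscle over the ubiquitous form in each library with its exact 95% interval from counting error; subunits 6a and 8 lie well above 0, and subunit 7a just below it in reads (above it per kilobase).

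The direction for subunit 7a depended on the scale. In reads, Cox7a1 was below Cox7a2 in both libraries with each set of models counted. Counted as reads per kilobase, Cox7a1 (leading model of 393 bases) was above Cox7a2 (659 bases), with log2 ratios of 0.12 in replicate 1 and 0.52 in replicate 2, while subunits 6a and 8 kept their direction at 5.42 and 4.27 as means. The reads of Cox7a1 were also divided differently among models in the libraries. Its 4-exon annotated model held 442 of 566 reads in replicate 1 (78.1%) and 1404 of 2001 in replicate 2 (70.2%). Single-exon models that start at position 30185912 of chromosome 7 differed between the libraries. An incomplete one of 119 bases, ending at 30186030, held 103 reads in replicate 1, and a genomic one of 4141 bases, ending past the gene at 30190052, held 520 reads in replicate 2. When incomplete and genomic models were left out, the mean log2 ratio of Cox7a1 over Cox7a2 was -0.71. Cox8a and Cox8b were nearly free of such models, with 100% and 98.7% of Cox8a reads and 95.6% and 96.7% of Cox8b reads in their leading 2-exon models.

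The promoters of the subunit 8 pair are shown because this pair differs in level, is led by 2-exon models in both genes, and has an entry for each gene in the RefSeq promoter table. They run from 250 bases before to 50 bases after the RefSeq transcription start (GRCm38.p6, the assembly also called mm10), on the minus strand at chr7:140900397-140900696 for Cox8b and chr19:7217567-7217866 for Cox8a. Capitals mark TATAAA, the letters of a TATA box core, and CAGCTG, an E-box of the kind bound by myogenic factors.
Cox8b: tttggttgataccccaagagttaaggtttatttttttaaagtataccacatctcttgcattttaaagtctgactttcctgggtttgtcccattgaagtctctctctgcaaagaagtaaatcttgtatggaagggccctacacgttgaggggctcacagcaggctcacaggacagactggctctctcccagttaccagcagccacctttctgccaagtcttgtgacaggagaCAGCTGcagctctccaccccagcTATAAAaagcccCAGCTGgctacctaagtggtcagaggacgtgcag
Cox8a: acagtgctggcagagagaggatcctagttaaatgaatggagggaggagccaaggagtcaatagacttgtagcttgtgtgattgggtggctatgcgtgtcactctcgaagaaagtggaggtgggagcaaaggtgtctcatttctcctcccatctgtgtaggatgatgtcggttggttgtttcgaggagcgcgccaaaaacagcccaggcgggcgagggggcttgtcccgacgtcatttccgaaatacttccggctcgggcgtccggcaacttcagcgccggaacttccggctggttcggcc
The Cox8b promoter held 1 TATAAA and 2 CAGCTG matches, and the Cox8a promoter held 0 of each. In the Cox8b window the CAGCTG matches begin at bases 232 and 267 and TATAAA at base 255, so TATAAA and the second CAGCTG lie after the RefSeq start and not before it. The motifs were searched on both strands, CAGCTG and TATAAA do not overlap here, and among all 32851 RefSeq promoters of the same length 13.6% held TATAAA and 16.3% held CAGCTG. RefSeq promoters matched 42 of the 55 genes, with 45 promoters in all, and none was matched for Cox6a2. Of the 45, 3 held TATAAA (6.67%) and 4 held CAGCTG (8.89%). The core motif of nuclear respiratory factor 1 was in 14 of the 45 (31.1%) against 4.60% of all promoters, among them 2 matches in Cox6a1 and none in Cox7a1, Cox7a2, Cox8a or Cox8b. AAGGTCA, the motif of oestrogen-related receptors, was in 7 (15.6%) against 4.72%. A loose form of the core MEF2 motif, with any base allowed at the middle positions, was in 1 (2.22%) against 3.69%. Matches to that loose form need not be MEF2 motifs, and the stricter motif was not searched. A match gives only the presence of these letters in the window.

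Atp5c1, the gene of the gamma subunit that turns inside the F1 head, has an alternative exon of 37 bases near the end of its coding sequence (chromosome 2, 10056770 to 10056806, minus strand, mm10), and a form without it is known from heart and skeletal muscle. The ends of both coding sequences are shown, each from the same 30 bases before the splice junction in lower case to the stop codon, with the bases after the junction in capitals.
Atp5c1 without the exon: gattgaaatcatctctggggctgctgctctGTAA
Atp5c1 with the exon: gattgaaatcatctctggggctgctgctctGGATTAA
The form without the exon closes with 4 bases after the junction and has 894 coding bases with its stop codon. In the form with the exon, 7 bases follow the junction, the coding sequence has 897 bases, and the extra codon is GAT before the stop. Reads that left the exon out numbered 869 of 887 in replicate 1 (98.0%, Wilson 95% interval 96.8 to 98.7) and 1600 of 1623 in replicate 2 (98.6%, 97.9 to 99.1). The exon was held by 18 reads in replicate 1 and 23 reads in replicate 2. The shares overlapped in their intervals, with a mean of 98.3% ± 0.433 (SD, n = 2), and were 97.9% and 98.7% with annotated models alone.

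The next question was which transcript models carried the members' reads. Annotated models held 84.4% of member reads in replicate 1 and 78.2% in replicate 2, against 69.5% and 67.6% over all annotated genes. Incomplete models, which match part of an annotated transcript, held 13.7% and 19.3% of member reads, against 11.05% and 16.1% over all genes. New junctions held 0.857% and 0.749% of member reads, against 12.4% and 4.58% over all genes, and genomic models, which overlap a gene without matching its annotated structure, held 0.852% and 1.58%, against 3.47% and 8.23%. Among the 48 members with at least 50 reads in each library, the leading chain of splice junctions (with all single-exon models of a gene taken as 1 chain) was the same in both libraries for 46, and it was an annotated chain for 44 in replicate 1 and 42 in replicate 2. The median share of a member's reads in its leading chain was 92.1% in replicate 1 and 88.3% in replicate 2. The members were thus read mostly as annotated transcripts.

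Cox4i1 and Atp5b, the members with the highest levels in CPM, had many reads outside their full coding models. For Cox4i1 the leading model, Cox4i1-204, is annotated as a retained-intron transcript that starts inside an intron and joins the last 3 exons. It held 2157 of 3367 reads in replicate 1 (64.1%) and 7827 of 10686 in replicate 2 (73.2%). The 5-exon coding model held 1119 reads (33.2%) and 2569 reads (24.0%), or 1080 and 1870 CPM. For Atp5b a 2-exon model of 372 bases near the gene's end (chromosome 10, 128089041 to 128090272) held 1540 of 4057 reads in replicate 1 (38.0%) and 7671 of 10412 in replicate 2 (73.7%). Its full 10-exon model held 2292 reads (56.5%) and 2184 reads (20.98%), or 2211 and 1589 CPM. The direction between the libraries therefore turned with the model counted, since the log2 ratio of replicate 1 over replicate 2 was -0.95 for all Atp5b reads, -1.91 for the short model and 0.48 for the full model. Whether the short models are separate transcripts or incomplete reads of the full ones was not tested. Reads in annotated models that the annotation does not call protein coding made up 5.37% and 8.05% of member reads, nearly all of them in Cox4i1, and only 176 and 507 such reads lay in other members.

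**Figure D3:**
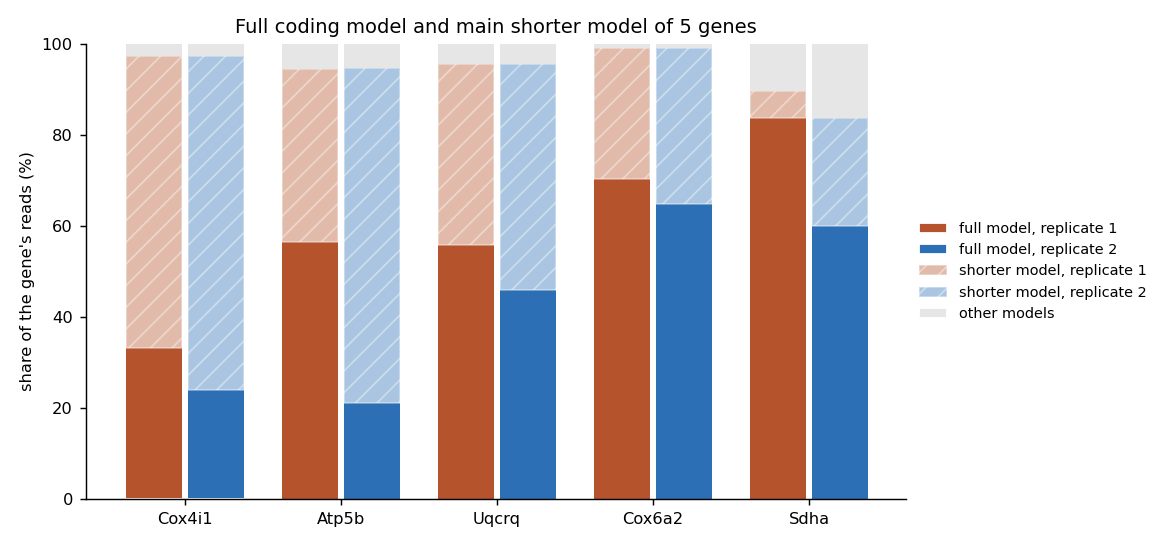
Share of each gene's reads in its full coding model (solid), in its main shorter model (hatched, pale) and in all other models (grey), with replicate 1 at left and replicate 2 at right for each gene. In all 5 genes the shorter model has a larger share in replicate 2, most of all in Atp5b (38.0% and 73.7% in replicates 1 and 2).

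Several other members carried much of their signal in shorter models. In Uqcrq a single-exon model of 198 bases around the stop codon held 618 reads (39.6%) in replicate 1 and 2394 (49.6%) in replicate 2. In Cox6a2 an unspliced model 378 bases long, at the end of the gene, held 590 reads (28.9%) and 1926 reads (34.4%). In Sdha a genomic model of 479 bases in the last part of the gene held 44 reads (5.89%) and 160 reads (23.8%), and the full 15-exon model held 83.7% and 59.9%. The share of each short model was higher in replicate 2 beyond its Wilson interval. Atp5f1 and Atp5j led in both libraries with chains that the tables class as incomplete, a 7-exon chain with 93.1% and 87.9% of Atp5f1 reads and a 4-exon chain with 77.1% and 80.7% of Atp5j reads. In Atp5g2 single-exon models, led by a genomic one of 151 bases, held 56.6% and 64.5% of the reads. In Sdhaf4 single-exon models held 52.8% and 70.8%, and the leading one was listed at 422 bases in replicate 1 and at 1 base, the last of the gene, in replicate 2. Model lengths are those listed in the tables and need not be those of reads.

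Near-identical copies limit how surely some members were counted. Annotated pseudogenes at least 90% identical to a member over at least 150 bases numbered 71, for 22 of the members, and 17 of them had reads. Their reads summed to 1070 in replicate 1 and 2804 in replicate 2, or 2.45% and 2.70% of member reads. The pseudogene Gm12338, identical to Cox7c over 192 bases, had 518 and 1412 reads, against 1117 and 3103 for Cox7c itself. Gm10231 and Gm10175, each identical to Atp5g2 over 441 bases, had 217 and 485 reads and 175 and 409 reads, against 235 and 589 for Atp5g2. Gm10221, identical to Atp5l over 309 bases, had 88 and 245 reads, against 509 and 1401 for Atp5l. If all reads of such copies came from the member, Atp5g2 would be at 842 CPM instead of 328 CPM, Cox7c at 2436 CPM instead of 1668 CPM, and Atp5l at 891 CPM instead of 755 CPM. No pseudogene with reads matched Cox6a1, Cox6a2, Cox7a1, Cox7a2, Cox8a or Cox8b. On the same strand, 5 members overlapped another annotated gene. These were Cox4i1 (Gm20388), Cox7c (Gm22574), Atp5c1 (Gm23608), Atp5b (Snord59a and Mir677) and Atp5g2 (Mir688). By their names, the genes at Atp5b and Atp5g2 are small RNA genes. Whether reads of one gene were given to the other was not tested.

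The libraries were then compared with each other. They are replicates of 1 group, so a difference between them is a spread and not an effect, and with 1 library a side it has no test. Genes with 10 reads or more over both libraries were counted as apart at 2-fold or more, with 0.5 reads added to each count. Over all 8339 genes compared, 20.9% were at least 2-fold higher in replicate 1 and 9.41% at least 2-fold higher in replicate 2. Of the 53 members compared, 0 were at least 2-fold higher in replicate 1 and 16 were at least 2-fold higher in replicate 2. Cox4i2 and Cox6b2 had under 10 reads in sum. The log2 ratio of replicate 1 over replicate 2 was below 0 in 48 members and above 0 in 5, with a median of -0.89, against 0.28 over all genes. The count of 16 became 32 with edgeR TMM library sizes, which moved the median of all genes by -0.26 to 0.02, put 15.1% of all genes at least 2-fold higher in replicate 2 and left 2 members, Sdha and Atp5a1, above 0. It became 25 without incomplete and genomic models, where 7.77% of all genes were that far apart, and 32 with DESeq2 size factors, where 15.3% were.

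By complex, 9 of 13 genes of complex IV, 3 of 9 of complex III, 2 of 16 of complex V, 0 of 4 of complex II and 2 of 10 assembly and regulatory genes were at least 2-fold higher in replicate 2, against 9.41% of all genes compared. The median log2 ratio was -1.01 for complex IV, -0.92 for complex V, -0.91 for complex III and -0.46 for complex II. Complexes IV and V thus differed more in the count past the 2-fold limit than in the median. The summed log2 ratio was -1.09 for complex IV (95% interval from counting -1.11 to -1.06), -0.77 for complex V (-0.80 to -0.75), -0.67 for complex III (-0.71 to -0.63) and -0.29 for complex II (-0.37 to -0.20). Cox7a1 stood furthest apart at -1.41 (-1.55 to -1.28), followed by Sdhaf3 at -1.34 (-2.50 to -0.38), Uqcc3 at -1.33 (-1.70 to -0.98), Cox4i1 at -1.26 (-1.32 to -1.20) and Uqcrq at -1.22 (-1.31 to -1.14). The others past 2-fold were Cox7b, Atp5k, Uqcrb, Uqcr11, Cox7c, Atp5l, Cox6a2, Cox6b1, Cox7a2, Cox5b and Cox6c, from -1.21 for Cox7b to -1.004 for Cox6c. The members above 0 were Sdha at 0.56 (0.41 to 0.71), Atp5a1 at 0.51 (0.43 to 0.59), Uqcrc2 at 0.22 (0.04 to 0.40), Uqcrc1 at 0.07 (-0.02 to 0.16) and Atp5s at 0.00 (-0.98 to 0.93).

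The ratio went with transcript length. The 32 members whose leading full model is under 1000 bases had a median log2 ratio of -0.95, with 13 at least 2-fold higher in replicate 2, and the 21 of 1000 bases or more had a median of -0.54, with 3. Other genes under 1000 bases did likewise, with a median of -0.63 over 981 genes and 24.4% at least 2-fold higher in replicate 2, or -0.85 and 34.4% over the 128 of them with at least 500 reads. The longer members had a lower median ratio than all longer genes, but the sets were not of like length. The median length was 1653 bases for the 21 members and 2759 bases for the longer genes together. Over all 7107 compared genes of 1000 bases or more, members included, the median log2 ratio was 0.41. Of these, 5.87% were at least 2-fold higher in replicate 2, against 14.3% of the 21 members. Across the 53 members the log2 ratio and log2 length had a Pearson r of 0.536 and a Spearman rho of 0.473, as a description across genes of the same libraries. After subtraction of the lowess trend on length, 5 of the 53 members were at least 2-fold lower in replicate 1, a share close to the 10.2% of all genes. These were Sdhaf3 at -1.97, Cycs at -1.35, Sdhaf1 at -1.25, Atp5b at -1.21 and Uqcrq at -1.17, of which Sdhaf3 and Uqcrq were among the 16. Sdhaf3 had only 11 and 38 reads in replicates 1 and 2, and Sdhaf1 14 and 32. Their intervals before subtraction were wide, at -2.50 to -0.38 and -1.81 to 0.16. The median of the members was then -0.30. The lengths used for Atp5b and Uqcrq, 1916 and 1521 bases, are not those of many of their reads. In replicate 2, models of 372 and 198 bases held 73.7% of Atp5b reads and 49.6% of Uqcrq reads. The full Atp5b model alone had a log2 ratio of 0.48, against a trend of 0.25 at its length. The part of length, of matrix genes (3171 and 787 CPM) and of adipocyte genes (82.0 and 263 CPM) in the difference was not tested.

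**Figure D4:**
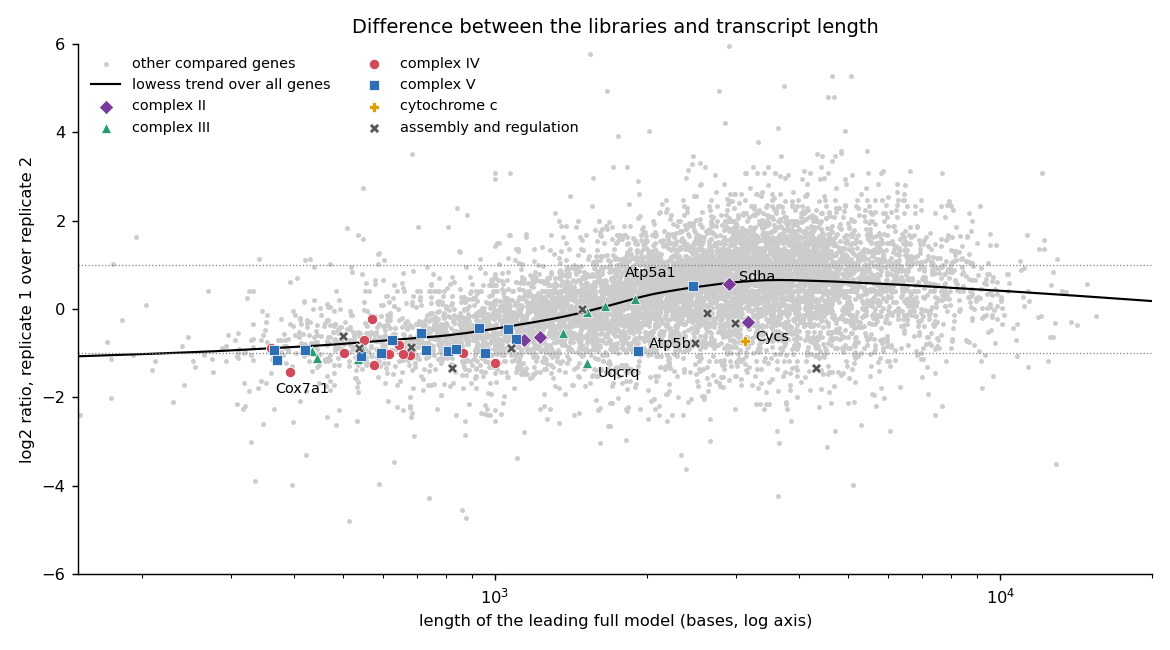
Log2 ratio of replicate 1 over replicate 2 against the length of the leading full model (log axis) for members, coloured by complex, and all other compared genes (grey), with the lowess trend (line) and the 2-fold limits (dotted). The 32 members under 1000 bases have a median of -0.95. Atp5b, Uqcrq and Cycs, whose leading full models are longer, lie more than 2-fold below the trend at those lengths. Many reads of Atp5b and Uqcrq lie in much shorter models.

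The rest of oxidative phosphorylation was read from lists beside the members. Of the nuclear complex I subunits, 37 of 38 had reads, with sums of 19621 and 39430 CPM. Of these 37, 20 were at least 2-fold higher in replicate 2 and 0 in replicate 1. The shares of all genes compared, here and for the lists below, were 9.41% in replicate 2 and 20.9% in replicate 1. Ndufa4, whose protein is now placed with complex IV, had a log2 ratio of -1.33. The mitochondrially encoded subunits summed to 2659 and 12667 CPM, and all 10 with at least 10 reads were at least 2-fold higher in replicate 2, with a median of -2.15. Among them, mt-Cytb, the mitochondrial subunit of complex III, had 853 and 5853 CPM, mt-Co1 of complex IV had 899 and 2882 CPM, and mt-Atp6 of complex V had 126 and 581 CPM. Assembly factors outside the member list were low, at 1385 and 2210 CPM in sum over 24 genes, and 3 of 23 were at least 2-fold higher in replicate 2, with a median of -0.26. Among regulators of mitochondrial genes, Esrra had 361 and 1903 CPM, while Ppargc1a had 18 and 3 reads, Ppargc1b 2 and 9, Nrf1 6 and 12, Gabpa 12 and 6, and Tfam 27 and 32.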

How the data were processed

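Long-read RNA-seq tables of 2 libraries of 1 group were used. The authors' deposited tables give raw read counts per transcript model on mm10, per the labels, with GENCODE M21, per the deposited notes, and list only models with reads. TALON is named in the deposited annotation; which aligner was used is not stated there or in the labels. Each library table was checked to hold whole counts. The counts of all models of a gene symbol were added up (Atp5o has 2 gene IDs), and spike-ins were left out.

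Levels were CPM. Between libraries, log2 ratios of replicate 1 over replicate 2 used 0.5 added reads and at least 10 reads in sum, with exact binomial 95% intervals; shares carry Wilson 95% intervals. The ratio script was tested on simulated data. A gene's length is that of its leading full model (annotated, new combination or new junction), and the length trend was fitted by lowess, at a fraction of 0.3, to genes of 50 reads or more. Pseudogenes were matched with blastn 2.17.0 (90% identity, 150 bases, 50% of the pseudogene). Coding sequences were aligned with Biopython 1.88. edgeR 4.0.16 and DESeq2 1.42.0 in R 4.3.3 gave library scalings only.

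No p-values were computed, since there was 1 group and 1 library a side. Named with values were members of at least 100 CPM, the 3 paralogue pairs, members with 0 reads in a library and those at least 2-fold apart; Sdhaf1 and Atp5s and the remaining low members were added after their values were seen. The members and lists were chosen with earlier results of these data known.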

Additional observations from a re-analysis of the deposited data

Results flagged for a closer look

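Reads on the opposite strand of member genes, in models that the tables class as antisense and that entered no gene count, numbered 50 in replicate 1 (at 15 members) and 130 in replicate 2 (at 24 members). These counts stand out only in that a count of 0 would allow 3. They made up 0.114% and 0.125% of all reads at the members' loci, against 2.38% and 5.94% when all genes and all antisense models are taken. Uqcrc1 had the most, with 8 and 22 antisense reads against 1901 and 2404 sense reads, and the largest shares were 11.5% and 13.6% for Sdhaf2 (3 and 6 antisense reads) and 5.17% and 6.77% for Sdhc (6 and 13 antisense reads). Another annotated gene lies on the opposite strand at 18 members.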

How the results depend on the processing

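No paired analysis was possible because there was 1 group. With 2 libraries, leaving out a replicate only gives the value of the other, which lies within 1 SD of the mean by construction and says nothing of stability. The values ran from 1824 to 2226 CPM for complex II, 13651 to 28962 CPM for complex IV, 17423 to 29725 CPM for complex V, 5.27 to 6.07 for Cox6a2 over Cox6a1 (log2), -0.63 to -0.22 for Cox7a1 over Cox7a2, 3.56 to 3.75 for Cox8b over Cox8a and 98.0% to 98.6% for Atp5c1 reads without the exon. A count was taken as kept within 1.5 times. With genomic models left out, 23 members instead of 16 were at least 2-fold higher in replicate 2, against 7.40% of all genes. Of the 70 other alternatives, 61 stayed within 1 SD of the mean or within that limit for counts, 8 moved further and 1 reversed. The shares of member reads by model class had no such alternative. Those kept include every setting for the count higher in replicate 1, which stayed at 0. The limit of 1 SD was wide for some results, such as 10826 CPM on a mean of 21307 CPM for complex IV. Cox7a1 over Cox7a2 reversed to 0.32 per kilobase, which by construction favours the shorter gene, and was -0.71 without incomplete and genomic models. Cox8b over Cox8a was 4.27 per kilobase. Complex II was 2558 CPM against a total without mitochondrially encoded genes, Ckm, Acta1 and Atp2a1. That total raised the other complexes too, to 12525 CPM for complex III, 26518 CPM for complex IV and 29508 CPM for complex V. These stayed within 1 SD because their SD was wider. The 16 members at least 2-fold higher in replicate 2 became 32 with TMM, 32 with DESeq2 size factors, 25 without incomplete and genomic models and 5 after the length trend was subtracted (2 of them among the 16). Over all genes the shares in these settings were 15.1%, 15.3%, 7.77% and 10.2%, against 9.41% as reported. TMM and DESeq2 shift all genes alike by construction, and the cause was otherwise not tested. No alternative put a member at least 2-fold higher in replicate 1. The one without incomplete and genomic models was scaled to the reads of the models left. Scaled to all gene reads instead, Sdha without those models had a log2 ratio of 1.00 (644 and 426 reads in replicates 1 and 2). Adding pseudogene reads, chosen after seeing the data, moved Atp5g2 to 842 CPM. With 2 libraries of 1 group, spreads rest on 1 degree of freedom, and the labels give both the same donor entry, so part of the spread may be technical.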
